A study of Mus musculus with 3 samples.

Results

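Tumour MDSCs of alisertib-treated mice were compared with tumour MDSCs of control mice, gene by gene, on raw read counts. MDSCs are myeloid-derived suppressor cells, immature neutrophils and monocytes that build up in tumours and restrain T cells. The members of the comparison were the 12086 genes with at least 1 CPM (counts scaled to 1000000 per library) in either tumour library, of 19723 genes in the count table. All mice were female BALB/c aged 6 to 8 weeks. The alisertib library was pooled from 20 tumours of mice given alisertib, the control library from 20 tumours of control mice, whom the labels call untreated in one place and control treated in another. Bone marrow neutrophils of 5 wild-type BALB/c mice, sorted and pooled into the remaining library, serve as a reference value. The sources used here do not name the tumour line, its site, the dose, the schedule or the surface markers of the sort. Each group was 1 library, so there were no replicates, no p-value was computed, and every difference is between these pooled libraries.

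Alisertib is a small-molecule inhibitor of Aurora A, the mitotic kinase that matures centrosomes and builds the spindle. Neutrophils and granulocytic MDSCs stop dividing as they leave the bone marrow, and they carry transcripts for granule proteins, calprotectin, a dense actin cortex, annexins and glycogen-handling enzymes. In tumours such cells also respond to interferons, which act through STAT transcription factors on short promoter elements. The families below were therefore taken mainly from the cytoskeleton, interferon response, metabolism, signalling, transcription and protein synthesis. Genes of the classic neutrophil, granule, lymphocyte and hypoxia lists are given as counts and sums beside them.

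The libraries held 19373087 counts with alisertib, 21959748 in control and 21987097 in bone marrow, with 17622, 17303 and 17349 genes detected. The 8 neutrophil markers (S100a8, S100a9, Ly6g, Csf3r, Cxcr2, Itgam, Retnlg and Mmp9) were all detected and summed to 14718 CPM with alisertib, 32161 in control and 60410.4 in bone marrow. S100a8 and S100a9 made up 10704 and 26452 CPM of the tumour sums, and the other 6 markers summed to 4015 and 5709, with Mmp9 alone higher with alisertib (1411 against 1137). Of the sums of these 6, Retnlg alone held 296 CPM with alisertib and 1468 in control. All 7 B cell markers were detected, at 45.5 CPM with alisertib, 6.55 in control and 233 in bone marrow. The 8 T and NK cell markers summed to 30.2 CPM with alisertib, 15.4 in control and 144 in bone marrow, where Cd3d alone held 136. Of these 8, 5 were higher with alisertib, and Cd3d (6.21 against 8.7 CPM), Klrd1 (0.193 against 0.256) and Nkg7 (0.482 against 0.717) were lower. The 7 macrophage markers summed to 277 and 249 CPM in the tumour libraries, of which Csf1r made up 173 and 174. Of these 7, 5 were higher with alisertib, among them C1qa (31 against 21 CPM) and Mrc1 (13.9 against 7.37), and 2 were lower. The 4 endothelial markers summed to 52.9 and 50.1 CPM and the 3 epithelial markers analysed to 17.6 and 16.3. The 6 markers of eosinophils, basophils and mast cells summed to 55.0 and 40.8, of which Siglecf made up 52.3 and 35.6. The 5 fibroblast markers were not analysed here. The 5 dendritic cell markers summed to 6.94 CPM with alisertib and 3.53 in control, with Xcr1 at 75 against 36 counts. Of these 5, 3 were higher with alisertib, 1 was lower and Siglech was at 0 in both tumour libraries. The eosinophil marker Epx was at 0 in control. In pooled RNA of this kind, fewer cells of a type and less RNA per cell cannot be told apart.

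**Figure D1:**
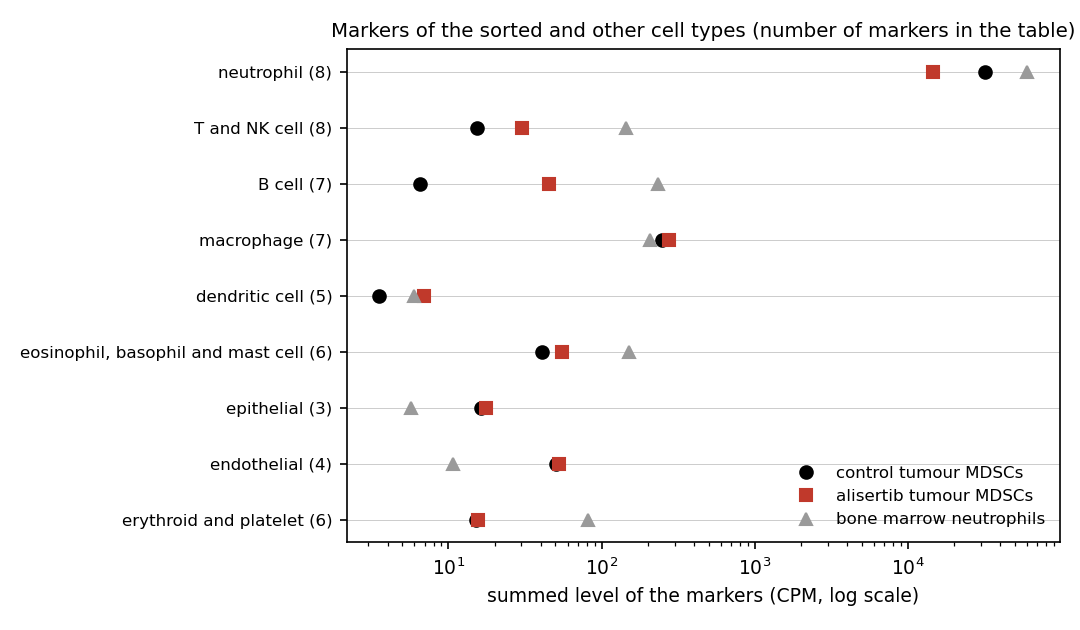
Summed level of the cell type markers in the 3 libraries, on a log scale in CPM, with 1 point per library and the number of markers in brackets. Neutrophil markers lie lowest in the alisertib library (14718 CPM) and B cell markers lie lowest in the control library (6.55 CPM). The sums of macrophage, epithelial and endothelial markers in the tumour libraries lie close together, though single markers such as Vwf, Mrc1 and C1qa differ.

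Calls went to genes whose exact 95% counting interval for the ratio lay wholly at least 2-fold away from 1. By this rule 225 genes were higher with alisertib, 1.86% of those compared, and 151 were lower, 1.25%. Together these were 3.11%, and 89.1% of genes lay within 2-fold of each other. The higher genes were rare transcripts, with a median of 3.32 CPM with alisertib and 0.563 CPM in control. The lower genes were abundant ones, with medians of 26.8 and 80.3 CPM, and of 89.7 CPM in bone marrow. Of the genes called, 103 higher and 65 lower ones were in no list at all. Of 38 genes of the neutrophil list 18 fell (median -0.85, 14 kept on total counts), of 28 of the secondary and tertiary granule list 13 fell (-0.91, 11 kept), and of 37 of the hypoxia and glycolysis list 6 fell (-0.63, 0 kept). The primary granule list differed: of its 8 genes 1 fell (Serpinb1a, 1 kept) and 5 lay above the median of all genes, with a median of 0.28. None of these lists held a higher call.

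The ratio also drifted with abundance over the whole table. The median log2 ratio was 0.24 for genes of up to 3 CPM, 0.03 between 10 and 30 CPM and -0.33 above 300 CPM. Called lower genes made up 0.827% of the rarest bin and 4.56% of the most abundant, and called higher genes 4.61% and 0.147%. A family of abundant genes would thus sit below 0 with the bulk of its abundance class, so each family median below is given beside the median over all genes, which was -0.0019, and, where the families are compared, after subtraction of the median of the abundance bin. Scaling by total counts alone moved the median of all genes to 0.27, kept all 225 higher calls and 78 of the 151 lower ones, and turned the split of higher to lower calls from 225 and 151 into 413 and 78. The shift raises every log2 ratio alike, so uncalled genes with a ratio slightly below 0 in the text, such as Cd84, Clec4e, G6pdx, Pgd and Mt1, lie above 0 on total counts. Family positions are therefore stated relative to the median of all genes, and calls of named genes that were lost on total counts are marked.

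**Figure D2:**
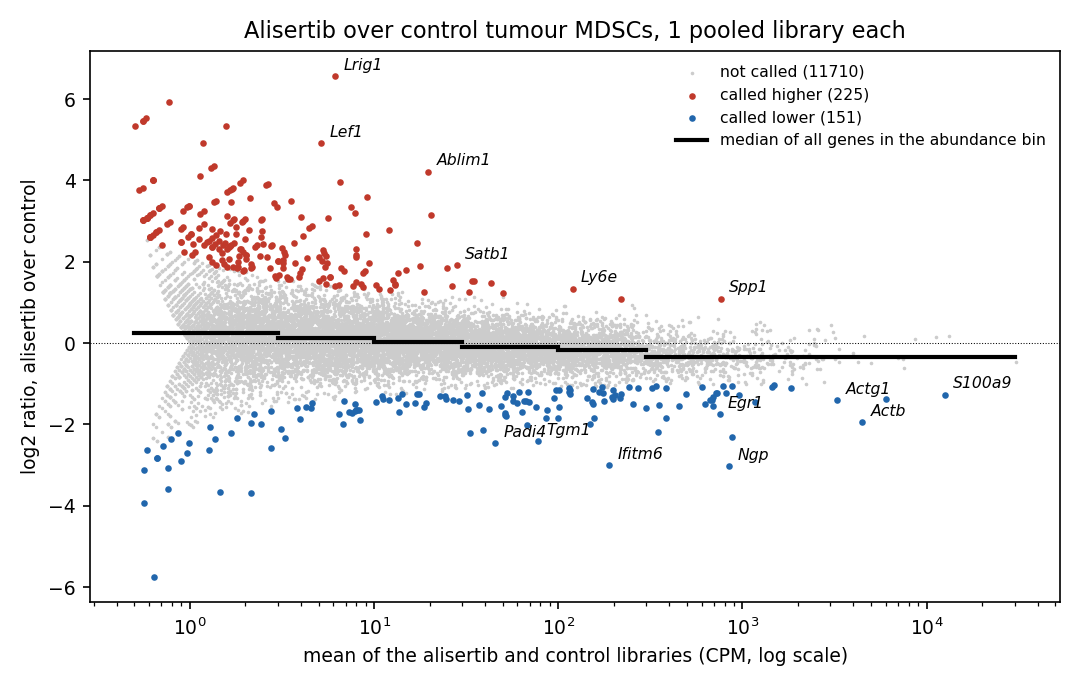
Log2 ratio of alisertib over control for each of the 12086 genes against the mean CPM of the libraries on a log scale, with called genes in colour and black bars for the median of all genes in each abundance bin. Calls on the higher side (225) crowd at low abundance and calls on the lower side (151) reach the most abundant transcripts, and the bin median falls from 0.24 to -0.33.

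The gene of the drug's target was not called. Aurka (ENSMUSG00000027496, chr2:172356190-172370535 on the minus strand) was counted 213 times in the alisertib library (10.3 CPM) and 189 times in the control library (9.68 CPM), and bone marrow held 27.1 CPM. The interval of its ratio, 1.06, ran from 0.868 to 1.3. Aurkb, the kinase of the chromosomal passenger complex, was below the filter. Of 16 Aurora and spindle genes past the filter, 1 was called higher (6.25% against 1.86% of all genes), and 13 lay above the median of all genes (median 0.41). After subtraction of the abundance-bin medians, 12 lay above the median of their bin and 4 below it (median 0.31). Bora, the cofactor through which Aurora A activates Polo kinase, had 50 against 17 counts, and Tpx2, which targets Aurora A to the spindle, 38 against 15. These are small numbers, and neither passed the 2-fold bound. The called gene was Myc, a growth regulator whose N-Myc relative Aurora A is known to stabilise, at 106 counts with alisertib, 32 in control and 97 in bone marrow (3.12-fold higher, 2.08 to 4.79).

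Most IFIT genes rose. They encode interferon-induced proteins that bind viral RNA and block its translation. Type I interferons switch them on through a STAT and IRF9 complex that binds the interferon-stimulated response element, ISRE. All 6 members had more counts with alisertib, and 4 rose past the 2-fold bound, 66.7% against 1.86% of all genes. The 250 bases upstream of the RefSeq start of 3 called members are shown because each holds the ISRE core pair that this pathway uses. They are written from RefSeq on GRCm38.p6, 5′ to 3′ on the plus strand at chr19:34640639-34640888, chr19:34583279-34583528 and chr19:34607707-34607956, with capitals marking each match on either strand to GAAA, any 2 bases, then GAAA.
Ifit1: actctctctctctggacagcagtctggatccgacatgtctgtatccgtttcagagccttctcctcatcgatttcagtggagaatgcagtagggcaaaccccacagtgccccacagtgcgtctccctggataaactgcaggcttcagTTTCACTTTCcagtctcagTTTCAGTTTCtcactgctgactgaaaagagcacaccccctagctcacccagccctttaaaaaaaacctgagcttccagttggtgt
Ifit3: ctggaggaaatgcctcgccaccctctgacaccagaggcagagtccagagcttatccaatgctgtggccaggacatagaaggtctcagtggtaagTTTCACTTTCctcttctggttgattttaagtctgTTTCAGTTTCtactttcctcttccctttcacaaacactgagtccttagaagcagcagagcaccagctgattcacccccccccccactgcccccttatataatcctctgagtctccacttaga
Ifit3b: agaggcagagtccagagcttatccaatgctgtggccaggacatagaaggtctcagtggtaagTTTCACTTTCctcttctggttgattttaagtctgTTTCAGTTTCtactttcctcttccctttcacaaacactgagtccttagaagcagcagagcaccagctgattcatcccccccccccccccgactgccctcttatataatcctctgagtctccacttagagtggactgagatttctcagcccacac
The Ifit1 window held its matches at 104 and 85 bases before the start, Ifit3 at 156 and 122, and Ifit3b, a close copy of Ifit3, at 188 and 154. Of all 27025 genes with a promoter window (250 bases before to 50 after a start), 3.99% held this motif, and 3.44% of all 32851 windows did. It was found in windows of 5 of the 6 IFIT genes, of 10 of 12 GBP and immunity GTPase genes with a window, of 7 of 10 IFI200 genes, of 4 of 6 OAS genes and of 2 of 6 IFITM genes. The windows of Ifit1 and Ifit1bl2 overlap head to head and share their matches. Neither window of Ifit2 held these letters. A match is a description of the sequence, and families with similar shares of matches had different ratios below.

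Ifit1 (ENSMUSG00000034459, chr19:34640871-34650009 on the plus strand) stood at 52 CPM with alisertib and 18.1 in control, against 9.54 in bone marrow (1080, 354 and 220 counts). It was 2.87-fold higher (2.54 to 3.25). Ifit2 (ENSMUSG00000045932, chr19:34550694-34576419 on the plus strand) had 811 counts with alisertib, 212 in control and 314 in bone marrow, and was 3.6-fold higher (3.09 to 4.21). In both genes the alisertib library was the highest of the 3 and the control and bone marrow libraries lay closer together. Ifit3, the neighbour of Ifit2, had 312, 74 and 92 counts in the same order and was 3.97-fold higher (3.07 to 5.18). Ifit3b followed at 127 against 36 (3.32-fold), with 297 in bone marrow. Ifit3 and Ifit3b are near-identical, so how their reads were divided is uncertain. Ifit1bl2 (393 against 156, log2 ratio 1.24) and Ifit1bl1 (39 against 16, 1.17) did not pass the bound. The family median was 1.62.

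Guanylate-binding proteins (GBPs) and immunity-related GTPases attack the membranes around intracellular pathogens and are induced above all by interferon gamma. Of 19 members, 3 rose (15.8% against 1.86% of all genes) and none fell, and 16 lay above the median of all genes (median 0.58). Gbp4 had 479 counts with alisertib, 129 in control and 28 in bone marrow (3.49-fold higher, 2.87 to 4.28). Gbp8 had 107 against 24 (4.2-fold). The exons of Gbp4, Gbp8 and Gbp9 overlap in the annotation, so their counts are uncertain. Iigp1, an immunity-related GTPase that breaks parasite vacuoles, had 25 counts against 1, a ratio of 23.5 with an interval of 3.85 to 966. The abundant members moved less: Gbp2 stood at 224 against 167 CPM (log2 ratio 0.42), Gbp2b at 163 against 125 (0.39), and Irgm1, a regulator of the others, at 99.6 against 117 (-0.23).

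The other interferon families held few calls. Of 11 IFI200 genes, which encode DNA-binding sensors such as Aim2, none was called, although 10 lay above the median of all genes (median 0.71). Ifi214 had 29 against 6 counts, while Aim2 stood at 124 against 109.5 CPM. The 8 OAS genes, which make the messenger that activates RNase L, had a median of 0.07 with none called. Oasl1, the most abundant, stood at 370.2 and 319 CPM. None of 8 schlafens (0.14), 12 antiviral PARPs (0.07) or 34 TRIM genes (0.18) was called. Among 22 interferon regulatory factors, STATs and interferon receptors, Stat4, which relays cytokine signals in T and NK cells, rose (66 against 12 counts), and the corepressor gene Irf2bp2 fell 2.86-fold (2.75 to 2.96, 3807 against 10231). Each call was 4.55% of that family, against 1.86% higher and 1.25% lower of all genes. Irf7 stood at 4096 against 3094 counts and Irf9 at 3346 against 5276, neither called.

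The IFITM family, membrane proteins that hinder the entry of viruses, went the other way. None of its 6 members lay above the median of all genes, 2 fell (33.3% against 1.25% of all genes), and the median was -0.84. Ifitm6 (ENSMUSG00000059108, chr7:141015699-141017924 on the minus strand) stood at 42.3 CPM with alisertib, 337 in control and 1136 in bone marrow, 7.96-fold lower than control (7.42 to 8.55). Ifitm1 stood at 560.2, 1352 and 90.1 CPM, 2.41-fold lower, a call that was lost on total counts. The bone marrow library was highest for Ifitm6 and lowest for Ifitm1, so the genes share the direction between the tumour libraries and differ in where the reference lies. Ifitm2 had a log2 ratio of -1.0 and Ifitm3 of -0.47, neither called, and members of this family share similar sequence.

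**Figure D3:**
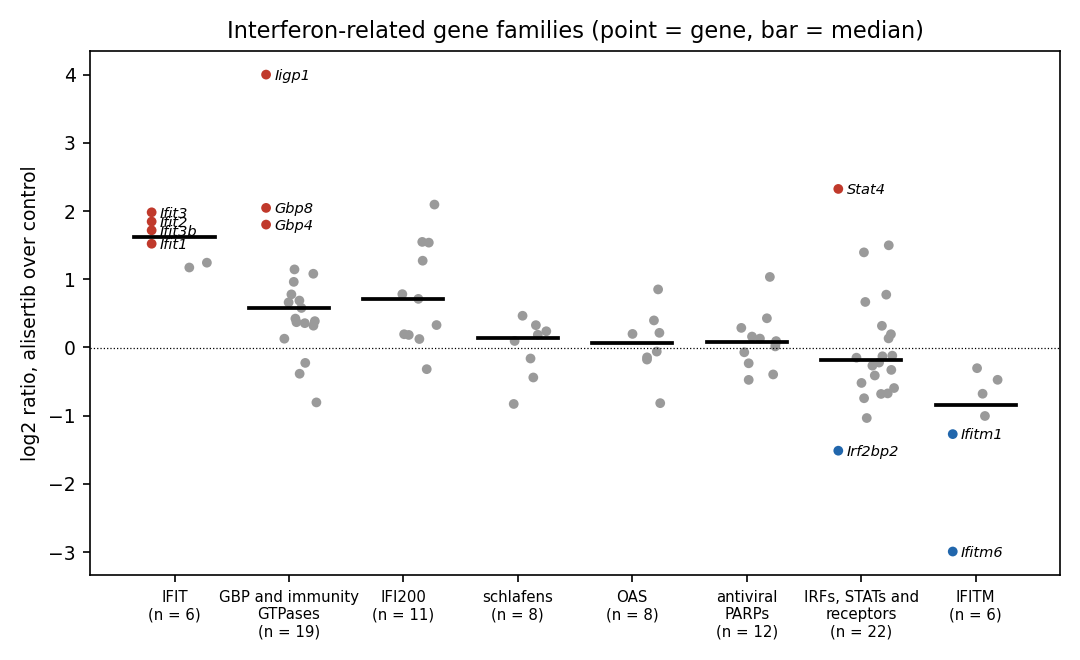
Log2 ratio of alisertib over control for every member past the filter of 8 interferon-related families, with 1 point per gene, called genes in colour and named, black bars at the family medians and a dotted line at the median of all genes. The IFIT points all lie above 0 (median 1.62) and the IFITM points all lie below it (median -0.84).

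Several families of the actin cytoskeleton had medians below 0 with alisertib, and both cytoplasmic actin genes fell. The cortex of a neutrophil is a mesh of actin filaments that profilin and thymosin feed, the Arp2/3 complex branches, and filamin, coronin and calponin cross-link or turn over. Actb (ENSMUSG00000029580, chr5:142903115-142906754 on the minus strand), the cytoplasmic beta actin gene, stood at 1843 CPM with alisertib, 7111 in control and 10238 in bone marrow. It was 3.86-fold lower with alisertib (3.81 to 3.9). Actg1 (ENSMUSG00000062825, chr11:120345690-120348542 on the minus strand), its gamma counterpart, stood at 1797, 4729 and 2170.0 CPM and was 2.63-fold lower (2.6 to 2.66). The alisertib library was the lowest of the 3 for both genes. The actin genes share most of their coding sequence and have pseudogenes, so a part of their reads can be exchanged between them. Of 25 actin and profilin core genes these were the 2 that fell (8% against 1.25% of all genes), and the median was -0.54. The next in order were Wdr1, which helps cofilin take filaments apart (log2 ratio -0.91), Pfn1, profilin (-0.90), and the capping protein gene Capzb (-0.90), none past the bound.

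Cross-linkers and adaptors held the most lower calls of any family outside the neutrophil and granule lists, 7 of 41 (17.1% against 1.25% of all genes), with 1 higher and 35 below the median of all genes (median -0.45). Cnn2 (ENSMUSG00000004665, chr10:79988584-79996062 on the plus strand), a calponin that restrains myosin on actin, stood at 43.4 CPM with alisertib, 155 in control and 1038 in bone marrow. It was 3.57-fold lower (3.31 to 3.85). Coro1a, the leukocyte coronin that turns over branched actin, stood at 374, 992 and 2317 CPM and was 2.65-fold lower (2.58 to 2.72). Tagln2, a transgelin that bundles actin, had 655 against 1706 counts (2.77-fold lower). In these 3 genes bone marrow was the highest library and alisertib the lowest. Filamin A (Flna, 2.35-fold), the adaptor drebrin-like (Dbnl, 2.37-fold), the leukocyte actin-binding gene Lsp1 (2.17-fold) and supervillin (Svil, 2.12-fold) fell too, and these 4 calls were lost on total counts. Ezrin (Ezr, log2 ratio -1.0), the scaffold Iqgap1 (-0.95), talin (Tln1, -0.80) and zyxin (Zyx, -0.80) lay on the same side without passing the bound.

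Ablim1, an actin-binding LIM protein gene, was the exception in that family. It had 778 counts with alisertib, 39 in control and 109 in bone marrow, 37.5, 2.0 and 4.72 CPM, and was 18.8-fold higher (13.6 to 26.6). All 7 B cell markers and 5 of the 8 T and NK cell markers were higher in the same library (sums of 45.5 against 6.55 CPM and 30.2 against 15.4), and their part in this value was not tested.

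Genes that nucleate actin showed the same side without any call. Of 32 genes of the Arp2/3 complex, its WASP and WAVE activators and the formins, 26 lay below the median of all genes (median -0.42). Actr3, the Arp3 subunit, stood at 606 against 1076 CPM (log2 ratio -0.83), and the subunits Arpc2 (-0.52), Arpc3 (-0.51), Arpc4 (-0.49) and Arpc5 (-0.47) lay close to each other. Among 22 myosins, Myh9, the non-muscle heavy chain that contracts the cortex, fell 2.14-fold (2.11 to 2.17), a call lost on total counts, and the median was -0.26. Arhgap15, which switches Rac off, fell 2.8-fold (also lost on total counts). Microtubule genes lay nearer to the median of all genes: 17 tubulins had a median of -0.03 and 37 kinesins and dyneins of -0.14, with none called.

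These actin families are also abundant. After subtraction of the median of each gene's abundance bin, the medians moved from -0.54 to -0.31 in the core, from -0.45 to -0.29 in the cross-linkers and from -0.42 to -0.16 in the nucleators, and none changed side. Of the 8 neutrophil markers 7 were lower in the alisertib library as well, and Mmp9 was higher. Without S100a8 and S100a9 they summed to 4015 against 5709 CPM, of which Retnlg alone held 296 and 1468. The part of these markers in the actin values was not tested. The upstream windows of Actg1 and Cnn2 are shown because serum response factor, a regulator of many actin genes, binds the CArG box. This motif was chosen after the ratios were known. They are written from RefSeq on GRCm38.p6, 5′ to 3′ in the gene's direction, Actg1 at chr11:120348496-120348745 on the minus strand and Cnn2 at chr10:79988350-79988599 on the plus strand, with the box in capitals.
Actg1: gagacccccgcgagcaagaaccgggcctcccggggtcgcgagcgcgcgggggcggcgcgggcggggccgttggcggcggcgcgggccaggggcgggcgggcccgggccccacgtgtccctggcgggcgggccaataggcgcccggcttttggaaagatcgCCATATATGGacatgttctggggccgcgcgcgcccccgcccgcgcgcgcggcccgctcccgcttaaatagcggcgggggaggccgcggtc
Cnn2: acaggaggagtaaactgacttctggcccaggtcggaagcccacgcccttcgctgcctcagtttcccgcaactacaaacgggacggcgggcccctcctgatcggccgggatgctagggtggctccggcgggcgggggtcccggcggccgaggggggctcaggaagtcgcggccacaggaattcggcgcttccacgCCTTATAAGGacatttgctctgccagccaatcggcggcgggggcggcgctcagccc
The box began 90 bases before the start of Actg1 and 56 before that of Cnn2. It was found in 2 of the 7 called lower cytoskeletal genes that had a window, in 7 of 146 cytoskeletal genes of any ratio (4.79%), and in 1.81% of all genes with a window.

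**Figure D4:**
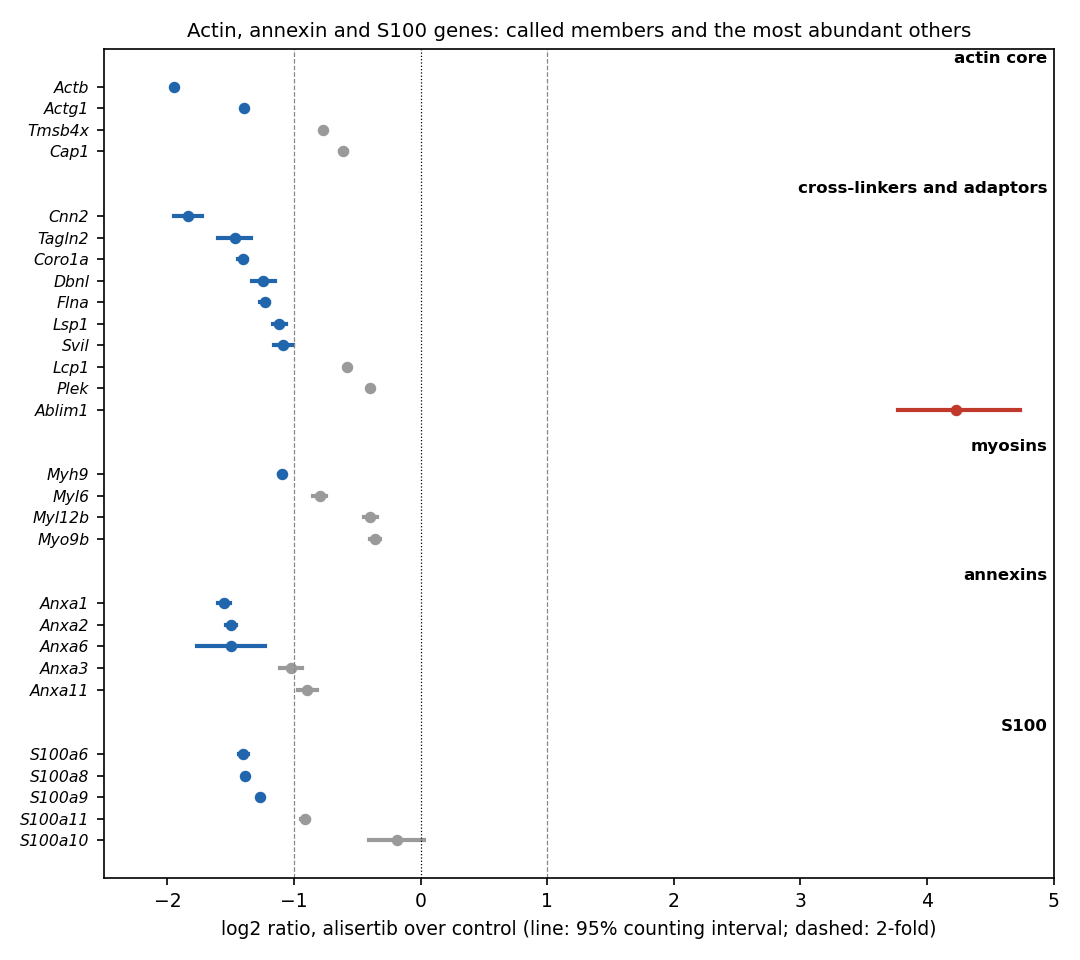
Ratio of alisertib over control with its 95% counting interval, on a log2 scale, for the called members and the most abundant other members of 5 families, coloured where called, with dashed lines at 2-fold. Called members lie left of the lower dashed line except Ablim1, and the uncalled abundant members shown also lie left of 0, of which S100a10 lies right of it on total counts.

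Annexins, calcium-dependent proteins that bind membranes and actin, fell in part. Of 10 annexin genes 3 fell (30% against 1.25% of all genes) and none rose, and the median was -0.84. Anxa1 (ENSMUSG00000024659, chr19:20373428-20390944 on the minus strand), whose product limits neutrophil recruitment, stood at 229.6 CPM with alisertib, 674 in control and 5065 in bone marrow, 2.94-fold lower than control (2.84 to 3.03). Anxa2, which anchors plasminogen at the cell surface, stood at 327, 923 and 958 CPM and was 2.82-fold lower (2.74 to 2.9). Anxa6 had 162 against 430 counts (2.82-fold lower, lost on total counts). Anxa7 (log2 ratio -0.03) and Anxa4 (0.15) lay near 0, so members of the family differed widely from each other.

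The S100 family, small calcium-binding proteins of which S100a8 and S100a9 form calprotectin, held 3 lower calls among 10 genes (30% against 1.25%). S100a6, which binds annexins, had 7633 against 18941 counts and was 2.64-fold lower (2.57 to 2.71). S100a8 (3341 against 8725 CPM) and S100a9 (7363 against 17726) fell 2.61-fold and 2.41-fold, the latter call being lost on total counts. S100a11 had a log2 ratio of -0.91, and S100a10, the partner of Anxa2, of -0.19. Stefins, inhibitors of cysteine cathepsins, fell in 4 of 9 members (44.4% against 1.25% of all genes, median -0.81), of which BC100530 and BC117090 were lost on total counts. Stfa3 stood at 59.3 against 237 CPM (4.0-fold lower) and Stfa2 at 397 against 992 (2.5-fold), whereas Cstb stood at 744 against 728. The stefin genes are near-identical neighbours on chromosome 16, so the split of their counts is uncertain.

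Padi4, the peptidylarginine deiminase that citrullinates histones when neutrophils cast chromatin nets, stood at 13.9 CPM with alisertib, 76.6 in control and 746 in bone marrow. It was 5.52-fold lower (4.86 to 6.28). Tgm1 (ENSMUSG00000022218, chr14:55700009-55713926 on the minus strand), a transglutaminase that cross-links proteins at the membrane, stood at 24.6, 130.3 and 8.28 CPM and was 5.29-fold lower (4.81 to 5.83). Padi4 was highest in bone marrow and Tgm1 was highest in control tumours. The abundant transglutaminase Tgm2 stood at 1129 against 1573 CPM and was not called.

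Among metabolic families outside the hypoxia and glycolysis list, glycogen genes had the lowest median. Neutrophils store glycogen as fuel for sites with little glucose. Of 18 genes 3 fell (16.7% against 1.25% of all genes), none rose, and 14 lay below the median of all genes (median -0.42, -0.36 after the abundance bins). Gyg (ENSMUSG00000019528, chr3:20122084-20155317 on the minus strand), glycogenin, which primes each glycogen particle, had 627 counts with alisertib, 1899 in control and 3840 in bone marrow and was 3.22-fold lower (2.94 to 3.53). Pygl, the liver-type phosphorylase that releases glucose units, stood at 134, 375 and 1899 CPM and was 2.81-fold lower (2.69 to 2.93). Ppp1r3b, which brings a phosphatase to glycogen synthase, had 3574 against 7274 counts (2.16-fold lower, lost on total counts). The primer and the phosphorylase were lower together, while the synthase Gys1 (log2 ratio -0.40) and the branching enzyme Gbe1 (-0.13) were not called. Annexins, Padi4 and glycogen enzymes are also products of neutrophils. The 6 neutrophil markers other than S100a8 and S100a9 summed to 4015 CPM with alisertib against 5709 in control (1.42-fold, with Mmp9 higher). Retnlg alone held 296 and 1468 CPM of these sums. The part of that difference in the values of these genes was not tested.

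Ggt1, which cleaves extracellular glutathione, was the 1 gene called of 54 glutathione and related genes (1.85% against 1.25% of all genes). It had 298 counts with alisertib, 1238 in control and 316 in bone marrow (4.41-fold lower, 3.89 to 5.03). The glutathione-synthesis genes Gclc (0.68) and Gclm (0.42), the thioredoxin reductase gene Txnrd1 (0.46) and the peroxiredoxin gene Prdx1 (0.91) had log2 ratios above 0 and were not called. The glutaredoxin gene Glrx, also uncalled, had a log2 ratio of -0.60. The family median was 0.08, with 31 members above the median of all genes and 23 below it. Transketolase (Tkt), of the pentose phosphate pathway, was 2.18-fold lower (lost on total counts), while G6pdx stood at -0.25 and Pgd at -0.15. Alox5ap, the helper of leukotriene synthesis, had 2506 against 6040 counts and was 2.56-fold lower. Nos2, the inducible nitric oxide synthase by which MDSCs can restrain T cells, had 2094 against 4545 counts (2.31-fold lower, lost on total counts). Mt2, a metallothionein, was 2.82-fold lower (lost on total counts) beside Mt1 at a log2 ratio of -0.23. Of 88 nuclear genes of the respiratory chain none was called, with a median of -0.12, and of 30 TCA cycle genes none was called (-0.10).

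A few synthesis genes rose. Phgdh, which opens the serine synthesis pathway, had 53 counts with alisertib, 4 in control and 37 in bone marrow (12.5-fold higher, 4.59 to 47.4). In its family of 20 serine, folate and one-carbon genes, 16 lay above the median of all genes (median 0.29), and the methionine adenosyltransferase gene Mat2a stood at 90.0 against 46.1 CPM (log2 ratio 0.97), not called except on total counts. Scd1, the desaturase that makes oleate, had 162 against 21 counts (7.26-fold higher, 4.59 to 12), and the elongase Elovl6 45 against 4 (10.6-fold, 3.86 to 40.5). Both rest on few counts in control. The other desaturase gene, Scd2, stood at 8.58 against 8.45 CPM. Ceramide genes Acer2 (47 against 7) and Cers4 (29 against 3, ratio 9.1, 2.82 to 46.7) were higher.

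Genes that build ribosomes lay mostly above the median of all genes, by small amounts. Of 59 ribosome biogenesis genes, 3 rose (5.08% against 1.86% of all genes), none fell and 47 lay above the median of all genes (median 0.38). By abundance, the higher share over all genes was 4.61% up to 3 CPM, 2.08% from 3 to 10 CPM and 0.728% from 10 to 30 CPM. Nop58, a core protein of the snoRNA particles that methylate ribosomal RNA, had 393 counts with alisertib, 136 in control and 190 in bone marrow (2.72-fold higher, 2.23 to 3.33). Nop16 had 166, 51 and 33 counts (3.06-fold, 2.23 to 4.28), and Rrp8, which methylates ribosomal RNA, 92, 28 and 118 (3.09-fold, 2.01 to 4.9). Nucleolin (Ncl) stood at 307 against 207 CPM (log2 ratio 0.57) and nucleophosmin (Npm1) at 113 against 79.4 (0.51), both uncalled. The ratios of the abundant members were thus small, and the calls fell on rarer ones.

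None of 87 cytosolic ribosomal protein genes was called, yet 74 lay above the median of all genes (median 0.29). After subtraction of the abundance bins, 81 of them lay above 0 with a median of 0.44, since other genes of their abundance leaned lower. Rpl12 stood at 139.8 against 73.8 CPM (0.92) and Rps9 at 499 against 762 (-0.61). Among 61 genes of cohesin, condensin and nuclear transport (median 0.29), the pore membrane gene Nup210 rose 4.98-fold (275 against 52 counts, 1260 in bone marrow) and the importin gene Kpna2 rose 2.73-fold, a call lost with DESeq2 size factors, as was that of Rrp8. The isoleucyl-tRNA synthetase gene Iars rose 3.23-fold (96 against 28), alone among 32 synthetase genes. Proteasome (48 genes, median 0.03), translation factor (66, 0.07) and spliceosome (48, 0.08) families had no call. COPI, COPII and SEC genes, which carry cargo between the endoplasmic reticulum and the Golgi, had a median of -0.29 over 55 genes with none called.

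Called transcription factor genes lay in several families. Egr1, an immediate early zinc finger factor, stood at 343 CPM with alisertib, 1159 in control and 335 in bone marrow and was 3.37-fold lower (3.29 to 3.47). The control library was the highest and the other libraries lay near each other. Xbp1, which drives the secretory stress response, had 6025 against 13607 counts (2.4-fold lower), and Rara, the retinoic acid receptor gene that supports granulocyte maturation, 1478 against 3115 (2.24-fold). Both calls were lost on total counts. The AP-1 genes Junb (-1.0), Fosl1 (-1.04) and Jun (-0.80) and the C/EBP gene Cebpb (-0.85) had log2 ratios below 0 and were not called. Hif1a, the hypoxia factor, stood at 643 against 1254 CPM (-0.96), also uncalled. The C/EBP core TTGCNNAA was sought on either strand in the 20 firmest lower genes at 10 CPM or more, here with the neutrophil and granule lists included. It was found in 6 of the 17 with a window (35.3%), against 12.2% of all genes with one and 10.3% of those past the filter. The matches were in Ngp, Ltf, Mmp8 and Retnlg, which are in the neutrophil or granule lists, and in Ggt1 and Tgm1.

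On the higher side, 3 of 20 POU and homeobox genes rose (15% against 1.86% of all genes), 2 of 13 Ikaros, Runx and GATA genes (15.4%) and 2 of 37 basic helix-loop-helix genes (5.41%). Pou2af1 and Gata3 among them are also in the B cell and T cell lists. Satb1 and Ikzf3 are in another lymphocyte list, that of naive lymphocyte regulators. Satb1 (ENSMUSG00000023927, chr17:51736187-51833290 on the minus strand), a chromatin organiser of lymphocytes and progenitors, had 923 counts with alisertib, 229 in control and 4481 in bone marrow (3.79-fold higher, 3.28 to 4.4). Pou6f1 had 284, 26 and 16 counts (10.3-fold, 6.87 to 16). Ikzf3, the Ikaros-type factor Aiolos of lymphocytes, had 89 against 23 counts (3.64-fold). Satb1 and Ikzf3 were highest in bone marrow and Pou6f1 was highest with alisertib. The circadian factor Tef (2.66-fold) and the E protein gene Tcf12 (2.68-fold) also rose, calls that were lost with DESeq2 size factors. The Polycomb gene Pcgf6 had 43 against 4 counts, and 23 histone demethylase genes (median -0.09) and 32 Mediator genes (0.01) held no call.

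Lower calls among signalling genes were single genes of their families. Acvrl1 (ENSMUSG00000000530, chr15:101128522-101145336 on the plus strand), a type I receptor of the TGF-beta superfamily best known from endothelium, stood at 26.8 CPM with alisertib, 109 in control and 2.04 in bone marrow, 4.06-fold lower than control (3.7 to 4.47). No other of 31 TGF-beta, activin and SMAD genes was called (3.23% lower against 1.25% of all genes), with Tgfbr2 at a log2 ratio of -0.50, Smad3 at -0.34 and Smad7 at -0.19. Adora2b, a low-affinity adenosine receptor, had 288 against 674 counts (2.49-fold lower, lost on total counts), and Mapk13, the p38 delta kinase of neutrophils, 751 against 1908 (2.7-fold). Outside the signalling families, 2 of 16 ADAM and ADAMTS genes fell (12.5% against 1.25% of all genes, median -0.29). These were Adamtsl4 (3.08-fold) and the protease gene Adam19 (2.75-fold), while Adam8, the most abundant of that family, stood at 1885 against 3656 CPM uncalled. Lipid raft flotillin (Flot2) had 486 counts with alisertib, 1578 in control and 8118 in bone marrow and was 3.45-fold lower (3.11 to 3.83).

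Lrig1 (ENSMUSG00000030029, chr6:94604529-94700158 on the minus strand), a membrane protein that restrains EGF-type receptors, had the firmest higher call of all 12086 genes by its nearest bound. It had 252 counts with alisertib, 2 in control and 1 in bone marrow, a ratio of 119 with an interval of 32.5 to 984. Gramd3 had 352 against 27 counts (12.3-fold higher, 8.29 to 18.9), with 58 in bone marrow. Cblb, the ubiquitin ligase that raises the threshold of T cell activation, stood at 29 against 5.27 CPM (5.51-fold, 4.46 to 6.86). Arap2, a regulator of Arf GTPases, stood at 28.2 against 7.53 CPM (3.74-fold), and the adaptor gene Grap2, a partner of T cell receptor signalling, had 271 against 56 counts (4.55-fold). In all 5 genes the alisertib library was the highest of the 3.

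In the Wnt family 4 of 31 genes rose (12.9% against 1.86% of all genes) and none fell. Lef1 (208 against 6 counts, 32.6-fold, 14.7 to 89.9) and Tcf7 (210 against 23, 8.59-fold) encode the factors that bind beta-catenin and are markers of naive T cells. Axin2 (66 against 4) and Znrf3 (73 against 4) are feedback inhibitors and classic targets of the pathway. Ctnnb1, beta-catenin itself, stood at 1067 against 1250.2 CPM and was not called. In the Notch family 3 of 25 rose (12%): the ligase Dtx1 (82 against 17), the glycosyltransferase Mfng (71 against 18) and the ligand Dll1 (22 against 3, ratio 6.9, 2.07 to 36, lost with DESeq2 size factors), while Notch2 stood at 695 against 1207 CPM (log2 ratio -0.80). Of 28 Src, Tec and Syk family kinase genes 5 rose (17.9%), among them the B cell kinase gene Blk (67 against 4), Txk (168 against 21), Lck (186 against 39) and Zap70 (100 against 23), which carry antigen receptor signals. Fgr and Lyn, kinases of myeloid cells in that family, did not pass the bound, with log2 ratios of -0.60 and -0.27.

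Several small immune families had medians above that of all genes. Of 6 Gimap GTPases, which support lymphocyte survival, 4 rose (66.7% against 1.86% of all genes, median 2.87). Gimap6 had 296 counts with alisertib, 30 in control and 82 in bone marrow (9.28-fold, 6.37 to 14), and Gimap3 254, 15 and 44 (15.9-fold, 9.48 to 28.9). The Gimap genes are similar in sequence and lie in a row on chromosome 6, so their counts are uncertain. In the MS4A family (median 0.76) the B cell gene Ms4a1 (37 against 3 counts, ratio 11.6, 3.67 to 58.8) and the T cell gene Ms4a4b (64 against 4) rose, while the macrophage-type Ms4a6d, whose log2 ratio of 0.76 is the family median, and Ms4a4a (-0.69) were not called. The 6 Siglecs had a median of 0.64 with no call, from -0.97 for Siglece to 1.32 for the B cell gene Cd22. In the SLAM family Slamf1 rose (35 against 3, ratio 11, 3.46 to 55.8), and Cd84, the most abundant, had a log2 ratio of -0.23.

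Beside these stand the lymphocyte lists themselves. Of 33 T and NK cell genes past the filter 20 rose (60.6%), and the 44 in the count table summed to 215 CPM with alisertib, 69.7 in control and 186 in bone marrow. Of 23 B and plasma cell genes 15 rose (65.2%), and the 30 in the count table summed to 107, 38.1 and 366 CPM. Ccr7, the receptor that brings lymphocytes and dendritic cells to lymph nodes, had 324 against 47 counts (6.49-fold). A list of naive lymphocyte regulators was mixed. Of its 51 genes past the filter 11 rose (21.6% against 1.86% of all genes) and 3 fell (5.88% against 1.25%). In it 22 genes lay below the median of all genes, and the 55 in the count table summed to 4551 CPM with alisertib and 6217 in control. With the genes of all these lymphocyte lists left out, 179 higher calls remained of 225. The part of lymphocyte RNA in the higher calls, those of the Wnt, Notch and kinase families among them, was not tested.

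Myeloid surface families showed few calls. None of 25 paired immunoglobulin-like and LILR receptor genes was called, with 21 below the median of all genes (median -0.35), Trem1 at 1493 against 2243 CPM and Pirb at 35.5 against 68.9. Of 24 C-type lectin genes Klra17 alone fell (4.17% against 1.25% of all genes, 2.63-fold, lost on total counts), and Clec4d, Clec4e and Clec7a had log2 ratios of 0.32, -0.04 and 0.27. Of 20 integrin genes Itga6 rose (185 against 44) and Itgb2l, a neutrophil beta chain, fell (80 against 238, 7906 in bone marrow). Each call was 5% of that family, against 1.86% higher and 1.25% lower of all genes. Ly6e, which restricts viruses at the cell surface, stood at 171 against 67.7 CPM (2.53-fold higher, 2.38 to 2.7), with 145 in bone marrow. It was 1 of only 3 higher calls above 100 CPM, with Ppp1r10, a nuclear targeting subunit of protein phosphatase 1 (298 against 140.3 CPM, 2.12-fold), and Spp1, the secreted phosphoprotein osteopontin (1042 against 488 CPM, 2.14-fold, 2.09 to 2.19). Spp1 was the 1 gene called of 20 in the macrophage list (5% against 1.86% of all genes), of which 11 lay above and 9 below the median of all genes. The 24 genes of that list in the count table summed to 2416 CPM with alisertib and 1722 in control, of which Spp1 itself made up 1042 and 488.

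Solute carriers were called at shares near those of all genes. Of 191 genes 4 rose (2.09% against 1.86%) and 2 fell (1.05% against 1.25%), with a median of 0.07. The zinc importer gene Slc39a4 had 431 counts with alisertib, 123 in control and 358 in bone marrow (3.3-fold higher, 2.69 to 4.06). Slc7a6, an amino acid exchanger, had 181 against 55 counts (3.1-fold), Slc5a3, a myo-inositol carrier whose exons overlap those of Mrps6, 87 against 13 (6.3-fold), and Slc16a1, a lactate carrier, 549 against 216 (2.39-fold). Slc25a24, a mitochondrial carrier, fell 2.68-fold and Slc2a1, the main glucose importer, 2.07-fold, both calls being lost on total counts. Rab3d, a GTPase of secretory granules, fell 3.15-fold (83 against 246, 9772 in bone marrow), and the lipid transporter gene Abca13 fell 3.09-fold. The V-ATPase proton pump (20 genes, median -0.15), lysosomal hydrolase (43, -0.14) and iron handling (34, 0.06) families held no call.

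Most of the most abundant transcripts were not called. Fth1, the ferritin heavy chain gene, stood at 25642 against 35223 CPM (log2 ratio -0.46), Ftl1, the light chain gene, at 11740.4 against 10653 (0.14) and the haem-degrading enzyme gene Hmox1 at 8892 against 8333 (0.09). The chemokine gene Cxcl2 (0.19), the endotoxin co-receptor gene Cd14 (-0.37) and the granule proteoglycan gene Srgn (-0.39) were also within 2-fold. Of the 12 most abundant genes, S100a8, S100a9 and Actb were called.

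Several firm calls fell on rare transcripts outside the families, of which Tdrp, Trib2, Krt81 and C530008M17Rik are given here as genes chosen after their values were seen. Tdrp, a gene known from the testis, had 64 counts with alisertib, 1 in control and 0 in bone marrow, a ratio of 60.2 with an interval of 10.4 to 2415. Trib2, a pseudokinase gene of leukaemia biology, had 104, 6 and 262 counts (16.3-fold higher, 7.25 to 45.5). Fbxo17, an F-box gene, had 23 counts against 0 and 25, at least 7.21-fold higher when the control library is set at a floor of 3 counts. On the lower side, the keratin gene Krt81 had 6 counts with alisertib, 78 in control and 33 in bone marrow (13.8-fold lower, 6.07 to 38.8). The unnamed gene C530008M17Rik was at 0 counts with alisertib, 25 in control and 18 in bone marrow, at least 8.86-fold lower at the same floor. Krt81 belongs to the hair keratins, and the epithelial markers analysed summed to similar levels in the tumour libraries (17.6 and 16.3 CPM).

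After subtraction of the abundance-bin medians, 87 of the 134 family medians moved by no more than 0.1 and 29 changed side. The families at both ends kept their side: annexins at -0.78, stefins at -0.93, S100 proteins at -0.40 and glycogen genes at -0.36 below, and Gimap GTPases at 2.69, IFIT genes at 1.61, GBPs at 0.65 and ribosome biogenesis genes at 0.30 above.

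**Figure D5:**
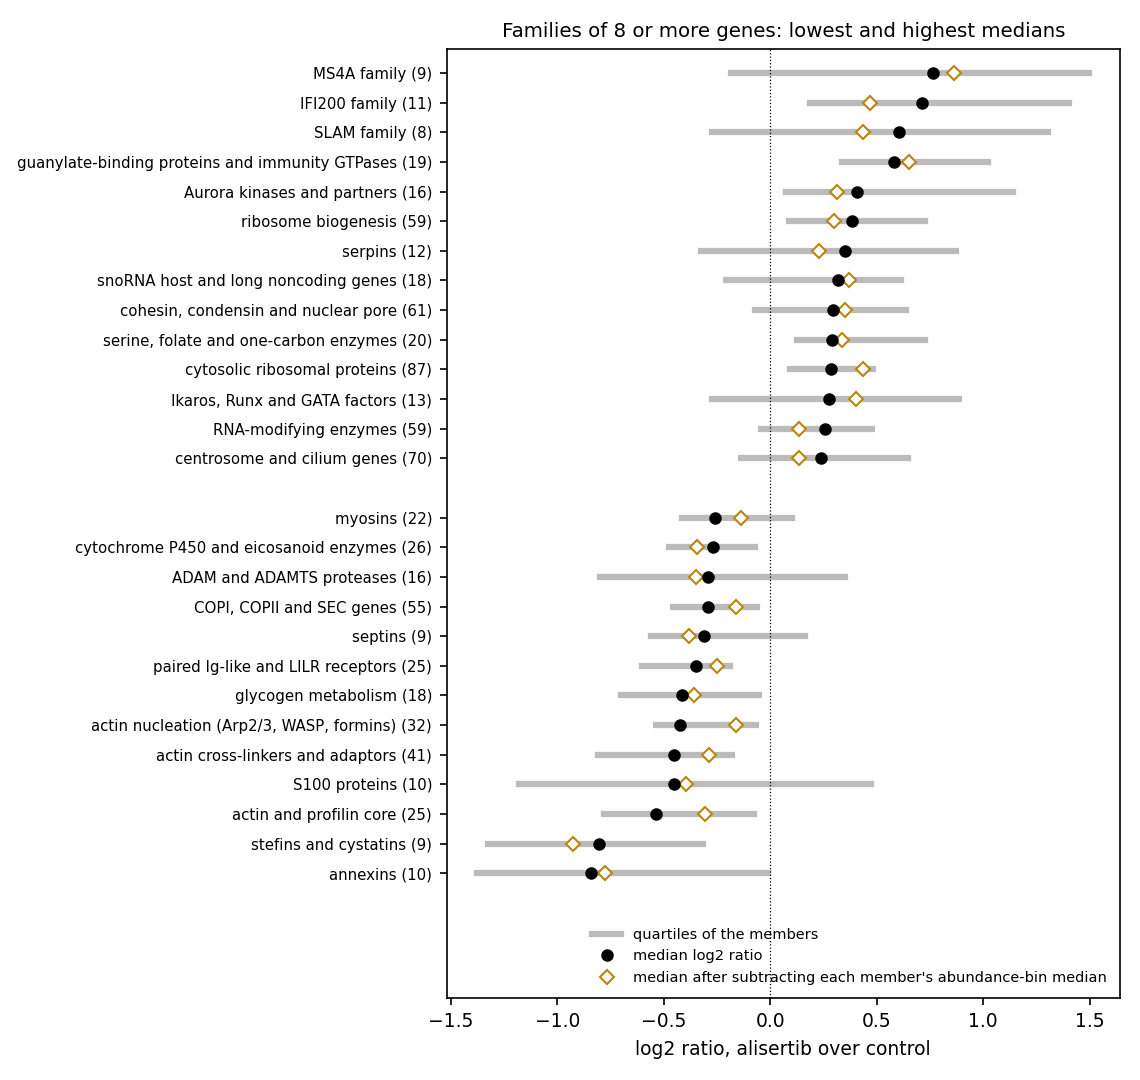
Median log2 ratio of alisertib over control (filled points), quartiles of the members (grey bars) and the median after subtracting each member's abundance-bin median (open diamonds) for 13 of the 14 lowest and all of the 14 highest families of 8 or more genes, with the number of genes in brackets. Annexins (-0.84) and stefins (-0.81) lie lowest and the MS4A family (0.76) highest, and the open diamonds of the actin families lie closer to 0 than their filled points.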

How the data were processed

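RNA was measured in 3 pooled libraries, each 1 sample of its group, so the spread between samples is unknown. The authors deposited whole-number read counts per gene and, separately, FPKM per gene. Alignment and counting were done by the authors, and the submitters' processing notes name CASAVA 1.8, STAR 2.5.1b and the builds mm9 and mm10 without role or order. The sources used here do not give the counting tool, its annotation or its use of strand. The deposited counts were scaled by TMM over the 3 libraries (edgeR 4.0.16 in R 4.3.3). The ratio of the tumour libraries was given an exact Clopper-Pearson 95% interval conditional on the summed count, and log2 ratios used a prior of 0.5 counts. Genes needed 1 CPM in either tumour library, and calls needed the nearest bound at 2-fold or more. Intervals cover counting error only, since without molecular identifiers the reads are not separate molecules. A gene at 0 was set at a floor of 3 counts.

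The members and the 148 gene lists, 134 of them families, were chosen with earlier results of these data known. Named genes were the 20 firmest calls in each direction at 10 CPM or more outside the classic lists and unnamed symbols, up to 4 members of each family of at least 4 genes that held a call, up to 4 members of the 8 highest and 8 lowest families of at least 8 genes, the 12 most abundant genes and the Aurora partners. Further family members given as context were chosen with their values seen. Gene positions are from GENCODE M21 on GRCm38, and promoter windows are from RefSeq on GRCm38.p6. The alternatives were total counts, DESeq2 1.42.0 size factors, TMM of the tumour libraries, other filters and bounds, and the deposited FPKM plus 0.1. The calling step was tested on simulated data. No p-value was computed. A few genes and 1 of the lowest families are not reported here.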

Additional observations from a re-analysis of the deposited data

Results flagged for a closer look

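The FPKM table held 4154 genes that were not in the count table, of which 2536 were at 0 in bone marrow and 294 reached 1 FPKM in a tumour library. The comparisons above do not use these genes. The following had at least 1 FPKM with alisertib, at least 2 times the control value, and 0 in bone marrow, which is a signal outside the main measurement. Without counts their depth is unknown, and no interval is given.

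Gene segments of the T cell receptor beta variable region were among them: Trbv29 stood at 1.59 FPKM with alisertib and 0.141 in control, Trbv12-2 at 1.46 and Trbv19 at 1.16, both listed at 0 in control. The mast cell protease genes Tpsb2 (1.56 against 0.415) and Mcpt1 (1.77 against 0.679) were also higher, while the mast cell and basophil markers of the count table Kit (1.78 against 3.07 CPM), Cpa3 (0.289 against 0.41) and Mcpt8 (0.0963 against 0.717) were lower. The syntenin relative Sdcbp2 stood at 2.24 against 0.891 FPKM, the kinesin gene Kif1a at 1.2 against 0.497, the apolipoprotein gene Apoa1 at 1.06 against 0.484, Fam71f1 at 1.04 against 0.399 and the tight junction gene Cldn3 at 1 against 0.396. In the opposite direction Dusp14 stood at 1.95 against 4.79, the antibody segment Ighv14-2 at 0.267 against 2.84 and Crisp1 at 0.132 against 1.02.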

How the results depend on the processing

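Scaling by total counts gave 413 higher and 78 lower calls in place of 225 and 151. A filter of 10 CPM gave 45 higher calls among 6568 genes, a bound of 1.5-fold gave 597 higher and 633 lower calls, and a bound of 3-fold gave 95 and 25, by construction of fewer genes or another bound. The share of higher among all calls was 59.8% in the report, 84.1% on total counts, 51.8% with DESeq2 size factors, 27.8% at 10 CPM, 48.5% at 1.5-fold and 79.2% at 3-fold. DESeq2 size factors (198 and 184), TMM of the tumour libraries (220 and 149) and no filter (282 and 171) stayed within 1.5 times of each count, as did leaving out the lymphocyte lists (179 higher) or the neutrophil and granule lists (127 lower), the last chosen after seeing the data. No named gene that was called changed direction under a scaling that was run, while uncalled genes slightly below 0 lay above 0 on total counts. Relative to the median of all genes, all 134 family medians stayed within 0.1 under the other scalings, 129 with deposited FPKM, 92 of 132 at 10 CPM and 87 within abundance bins. No paired analysis was possible because each group was 1 library and the labels carry no replicate numbers. Depth limits rare genes most: the calls on genes of up to 3 CPM rest on few counts, and with 1 library a group, differences between animals, tumours or sorts cannot be told apart from the treatment.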

Other observations

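Median ratios differed little with gene length, while the shares called differed more. Over bins of exonic length from shortest to longest, divided at 2464, 4179 and 6590 bases, the median log2 ratios were -0.04, 0.00, 0.01 and 0.01, the called higher shares 1.29%, 1.89%, 1.72% and 2.55%, and the called lower shares 1.99%, 1.26%, 0.962% and 0.796%. Among the nuclear chromosomes listed, the share of genes called higher ran from 0.599% on X (2 of 334) to 3.80% on chromosome 6 (24 of 632), where the Gimap cluster lies.

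Some called genes were neighbours of others of the same direction, including Ifit2 with Ifit3, Gimap4 with Gimap6, S100a8 with S100a9, Stfa2 with Stfa3, and the immunoglobulin heavy chain genes Ighg1, Ighd and Ighm. Exons that overlap another gene were less frequent among calls, at 14.7% of higher and 15.2% of lower genes against 26.4% of all genes, and these shares were not tested. Of genes annotated as TEC, a class of gene models still awaiting experimental support, 9 of 281 were lower (3.20% against 1.25% of all genes). Of the same genes 3 were higher (1.07% against 1.86% of all genes), and the median log2 ratio was -0.29.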
